A study of Cunninghamia lanceolata with 2 samples.

Results

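The genes described here are the 7 ammonium transporters of the Amt family among the 32731 assembled genes measured in roots of Chinese fir (Cunninghamia lanceolata), a conifer grown for timber. They are all the genes whose product name in the deposited table contains "ammonium transporter, Amt family", and the name was given by the authors' annotation. The rule uses no measured value, but the family was chosen by its LP and CK levels in an earlier look at these data, so those levels are given as a description. Seedlings had spent 4 months either at low phosphorus (LP, the phosphorus of distilled water, below 0.01 mM) or at sufficient phosphorus (CK, 1 mM), after a first month on diluted Hoagland nutrient solution that both groups received. Root RNA of each group was sequenced as 1 library, so no spread between plants could be measured and no test was run. No age, provenance or number of pooled seedlings is given in the sources used here, nor is the form of nitrogen in the treatment solutions.

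Amt proteins are membrane channels and carriers that bring ammonium into cells. In roots of well-studied plants such as Arabidopsis and rice they take up ammonium from the soil, and some members move it between tissues. The incoming ammonium is fixed by glutamine synthetase and glutamate synthase, while nitrate, the other main inorganic nitrogen source, is first reduced by nitrate reductase and nitrite reductase. The level of many root Amt genes is known to follow the nitrogen supply.

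The 2 libraries held different Amt genes at the top. In the CK library comp25882_c0 made up 88.6% of the summed Amt level, at 96.87 RPKM (deposited reads per kilobase, set relative to library size). In the LP library comp16516_c0 made up 50.4%, at 72.3 RPKM, and was almost unread in CK, at 0.14 RPKM. A further 4 members had reads in LP and 0 reads in CK. The summed level itself differed far less, at 143.5 RPKM in LP against 109.3 in CK, a ratio of 1.31. In whole roots, fewer cells of a type and less RNA per cell cannot be told apart.

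**Figure D1:**
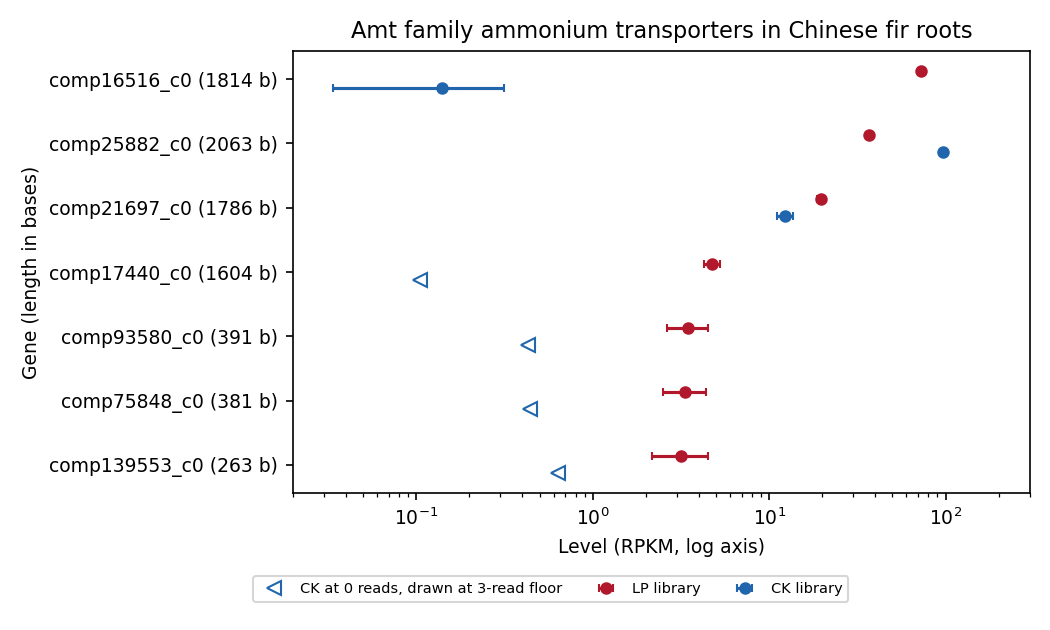
Level of each Amt gene in RPKM on a log axis in the LP library (red) and the CK library (blue), 1 library per group. Bars are exact 95% Poisson intervals that cover counting error only, and open triangles mark genes with 0 reads in CK, drawn at the level that 3 reads would give. Only comp25882_c0 lies higher in CK, and comp21697_c0 lies 1.59-fold higher in LP.

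The gene comp16516_c0 is 1814 bases long and was assembled as 1 transcript. It held 6495 estimated reads in LP against 4.45 in CK, where the LP level would have given 2390 reads in a library of that size. By reads per library total it was 537-fold higher in LP (exact 95% interval of the counts 233 to 2194). Its level stood 2062nd from the top of all genes in LP and 31219th in CK. Of 728 genes over 1500 bases with 50 to 100 RPKM in LP, 1 lay under 1 RPKM in CK (0.137%), and comp16516_c0 is that gene. These limits enclose its own values, so the share is a description only.

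The gene comp25882_c0 had the opposite order. It had 36.79 RPKM in LP (35.4 to 38.2) against 96.87 in CK (93.0 to 100.9), which is 2.63-fold lower in LP (2.49 to 2.78). In number of reads the libraries were closer, with 2726 in LP and 2343 in CK, because the CK library is smaller. Its level ranked 4192nd in LP and 1315th in CK. The gene is 2063 bases long, has 2 assembled transcripts and an effective length of 1347 bases, 65.3% of its length. By reads per library total, without the deposited RPKM, it was 2.34-fold lower in LP.

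The gene comp21697_c0, also with 2 transcripts and 1786 bases long, stayed within 2-fold. It had 19.65 RPKM in LP (18.7 to 20.6) against 12.32 in CK (11.1 to 13.6), on 1711 and 397 reads. The intervals of counting error do not overlap, and the gene was 1.59-fold higher in LP (1.43 to 1.78). Its share of the summed Amt level was 13.7% in LP and 11.3% in CK.

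The remaining 4 members had 0 reads in CK. The longest of them, comp17440_c0, is 1604 bases long and had 374 reads and 4.73 RPKM in LP. At that level the CK library would have held 138 reads, so it was at least 45.9-fold higher in LP, counted against a floor of 3 reads in CK. Its GO terms are the only ones in the family that name high-affinity secondary active ammonium transport, the plasmodesma and the response to nematodes.

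The 3 others are short, at 391, 381 and 263 bases. The gene comp93580_c0 had 57 reads and 3.48 RPKM in LP, where its level would have given 21.0 reads in CK, and was at least 6.99-fold higher. The gene comp75848_c0 had 52.9 reads and 3.33 RPKM in LP, at least 6.48-fold higher. The gene comp139553_c0 had 31 reads and 3.18 RPKM in LP, at least 3.8-fold higher. Such short genes may be fragments of longer transcripts, and whether they belong to other genes of the family was not tested.

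The deposited RPKM of these short genes is above the value that their reads, effective length and library total give. For comp139553_c0 the reads give 2.43 RPKM instead of 3.18 RPKM, and for comp93580_c0 3.01 RPKM instead of 3.48 RPKM. The bounds above were therefore taken from reads. Together the 4 genes unread in CK held 515 reads and 10.3% of the summed Amt level in LP.

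Absence from the CK library was more common among short genes. Of 1500 genes under 400 bases with 3 to 5 RPKM in LP, 104 had 0 reads in CK (6.93%). Of 1516 genes over 1500 bases with 3 to 7 RPKM in LP, 3 had none (0.198%), and comp17440_c0 is 1 of these 3. Both sets of limits enclose the values of Amt genes unread in CK, so these shares are descriptions only. Over all genes, 1455 (4.45%) had 0 reads in CK and 421 (1.29%) had 0 reads in LP. The LP library holds 48502899 reads and the CK library 17848911.

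**Figure D2:**
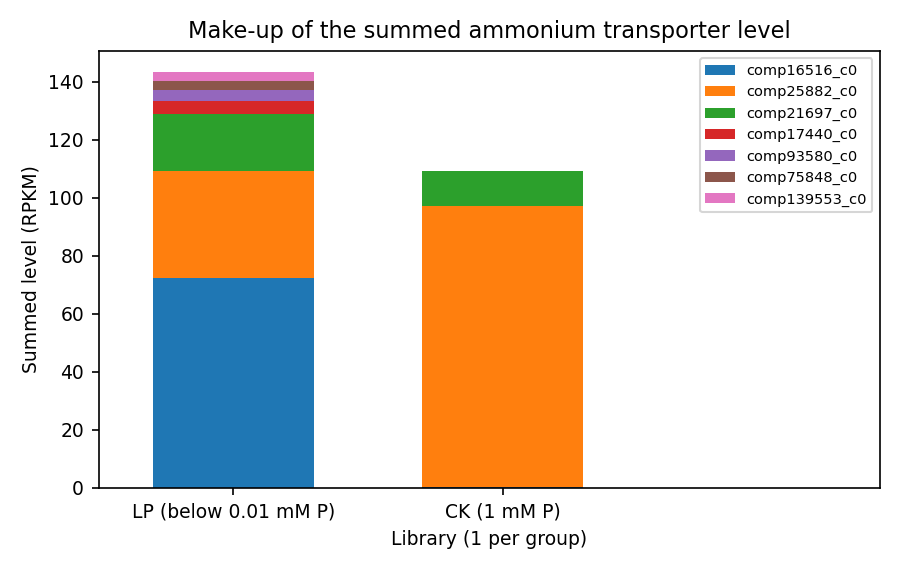
Summed RPKM of the 7 Amt genes in the LP and CK libraries, 1 per group, with each colour standing for 1 gene. The LP bar reaches 143.5 RPKM, of which comp16516_c0 makes up 72.3, and the CK bar reaches 109.3 RPKM, of which comp25882_c0 makes up 96.87.

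The order of levels was firm at the top and open at the bottom. In LP the intervals of comp16516_c0, comp25882_c0, comp21697_c0 and comp17440_c0 were apart from each other, while the neighbours comp17440_c0, comp93580_c0, comp75848_c0 and comp139553_c0 overlapped. In CK comp25882_c0 and comp21697_c0 were apart, and the other 5 overlapped at or near 0. The gene comp16516_c0 thus stood at the top in LP and behind 2 other members in CK. Its level was higher in LP by 72.2 RPKM, and that of comp25882_c0 was lower by 60.1 RPKM. Without comp16516_c0 the summed level was lower in LP, at 71.2 RPKM against 109.2 RPKM, a ratio of 0.65. Without comp25882_c0 it was 8.56 times as high in LP.

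The table pairs each gene with the identifier of a similar known protein, and 4 identifiers cover the family. Q851M9 is shared by comp16516_c0, comp75848_c0 and comp139553_c0, which together had 78.81 RPKM in LP against 0.14 in CK. All 3 were thus read in LP and at or near 0 in CK. Q84KJ6 is shared by comp21697_c0 and comp93580_c0, with 23.13 RPKM in LP against 12.32 in CK. The only gene with O04161 is comp25882_c0, and the only gene with Q9M6N7 is comp17440_c0. All 7 carry the same KEGG group, K03320, and a GO term for an integral membrane protein. Genes that share an identifier could be near-identical copies or pieces of 1 gene that share reads, so the split of reads among them is uncertain.

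With a pseudocount of 1 RPKM, 5 of the 7 were at least 2-fold higher in LP, 1 was at least 2-fold lower and 1 stayed within 2-fold. Of 30843 kept genes, those whose mean reached 1 RPKM, 8.68% were at least 2-fold higher and 16.2% at least 2-fold lower. Of the 7875 kept genes with a product name these shares were 9.28% and 10.1%, and 2.9% of all kept genes had 0 reads in CK. All 7 members passed this filter, but comp16516_c0 and the 4 unread in CK passed it through LP alone and had to differ, so all 5 higher calls were fixed by the filter and the count is a description only. TMM scaling moved the median log2 ratio of all kept genes from -0.16 to 0.048 and left the counts at 5 and 1. With at least 10 reads asked of each library, comp25882_c0 and comp21697_c0 were left, with 0 higher and 1 lower. The authors' deposited table gives an FDR of 0 (to 2 decimals) for comp16516_c0 and comp25882_c0, 0.74 for comp21697_c0 and 0.29 to 0.47 for the 4 genes unread in CK. How that FDR was computed is not given in the sources used here. For comp21697_c0 it is high although the interval of counting error, 1.43 to 1.78, lies above 1. With 1 library per group the FDR rests on no measured spread between plants, so it does not compare the phosphorus levels.

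**Figure D3:**
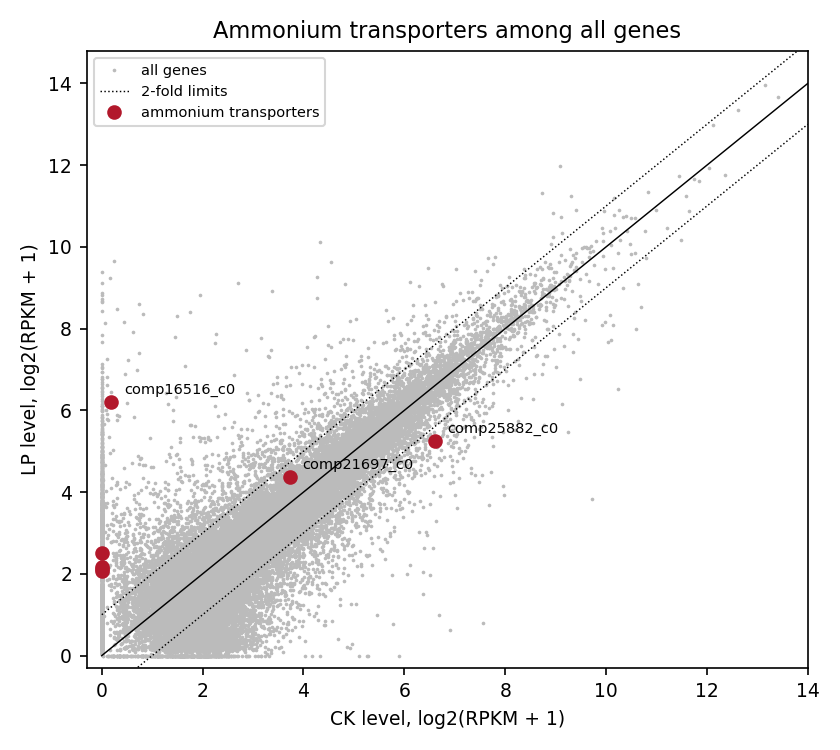
Level of every gene in CK (horizontal) and LP (vertical), as log2(RPKM + 1), with the 7 Amt genes in red, the line of equal levels and dotted lines at 2-fold. The gene comp16516_c0 and the 4 genes unread in CK lie at the left edge, and comp25882_c0 lies below the lower dotted line.

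The genes most like comp25882_c0 were sought by distance on the log2(RPKM + 1) scale over the 2 libraries, among genes with a product name. The nearest were comp26249_c0 (actin, 38.3 RPKM in LP and 95.23 in CK, distance 0.062), comp9024_c0 (methionine-gamma-lyase, distance 0.13) and comp25558_c0 (inorganic pyrophosphatase, distance 0.19). For comp16516_c0, a search added after its values were seen, the nearest were comp17119_c0 (g-D-glutamyl-meso-diaminopimelate peptidase, 69.81 RPKM in LP and 0 reads in CK, distance 0.20) and comp10090_c0 (stearoyl-CoA desaturase, distance 0.37). Next came comp9387_c0 (glycerophosphoinositol inositolphosphodiesterase, 53.01 and 0.09 RPKM, distance 0.45). With 2 libraries, likeness means only 2 similar levels.

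Outside the product name, 3 genes carry a GO term for ammonium transmembrane transport. The gene comp45488_c0, of 280 bases, has the identifier Q84KJ6 that comp21697_c0 also has. It had 4.7 RPKM in LP against 6.16 in CK, on 50 and 24 reads (1.31-fold lower in LP, 0.77 to 2.17). The gene comp78533_c0, of 843 bases, had 4.43 RPKM and 2.82 RPKM (1.57-fold higher, 1.11 to 2.26). The gene comp115588_c0, whose terms also name acetate transport and meiosis, had 17.4 reads in LP and 0 in CK, at 0.84 RPKM in LP. Neither of the first 2 reached 2-fold, and unlike the short genes of the named family, comp45488_c0 was read in CK.

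Ammonia also crosses membranes through tonoplast aquaporins (TIP), the water channels of the vacuole, and 3 TIP genes carry an ammonia transport term. Of these, comp28501_c0, of 481 bases, had 291.4 RPKM in LP against 29.36 in CK, 9.93-fold higher (8.69 to 11.4). All 3 share the identifier Q41951, so the short gene may be a piece of another and the split of reads among them is uncertain. The other two stayed within 2-fold, with 1007 against 783.3 RPKM for comp8867_c0 and 207.1 against 236.3 RPKM for comp23772_c0. The whole Amt family, at 143.5 RPKM, was below each of these 3 TIP genes in LP.

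Around ammonium uptake, 45 kept genes were matched by 10 product-name searches on nitrate and ammonium use, with 8 carbonic anhydrases and 4 folylpolyglutamate or dihydrofolate synthases among them. Of the 45, 5 were at least 2-fold higher in LP (11.1%), 7 lower (15.6%) and 33 within 2-fold. These shares are near those of all kept genes, 8.68% and 16.2%, and are a description only. The median log2 ratio of the 45 was -0.16, the same to 2 decimals as that of all kept genes. All 5 higher genes had 0 reads in CK, 11.1% of the 45 against 2.9% of all kept genes. They passed the filter through LP alone, so their calls were fixed by it. None of the 40 others was 2-fold higher, although with TMM or DESeq2 scaling 6 genes in all were. Of 3 nitrate transporters of the NNP family, comp26314_c0 was 44.0-fold lower in LP (37.9 to 51.3), comp25897_c0 was 3.42-fold lower (3.12 to 3.76) and comp24051_c0 stayed within 2-fold. The 3 genes named nitrate reductase went both ways, but they differ in length and identifier. The gene comp16880_c0, of 3188 bases, was 6.88-fold lower in LP (6.57 to 7.2). By reads per library total it was 7.4-fold lower, outside that interval. In LP comp135365_c0, of 232 bases, had 8.46 RPKM and comp3927_c0, of 581 bases, had 3.16 RPKM, both with 0 reads in CK. Whether these short genes are nitrate reductases of the tree was not tested. Also lower in LP were ferredoxin-nitrite reductase comp14490_c0 (2.7-fold, 2.64 to 2.77), and the glutamate synthases comp21774_c0 (NADPH/NADH type, 2.62-fold, 2.55 to 2.7) and comp7797_c0 (ferredoxin type, 3.63-fold, 3.46 to 3.8). Both glutamate synthases lie in the pathway that fixes the ammonium brought in by Amt proteins.

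Glutamine synthetase, the first enzyme to fix ammonium, differed less. Its main gene comp19654_c0 had 753.3 RPKM in LP against 862.8 in CK, 1.15-fold lower in LP (1.13 to 1.16). Another gene named glutamine synthetase, comp17457_c0, is 751 bases long and has a different identifier from the main gene. It had 375 reads and 11.41 RPKM in LP and 0 reads in CK, and whether it belongs to the tree was not tested. The 3 glutamate dehydrogenases stayed within 2-fold. Of 2 genes for L-asparaginase, which frees ammonium from asparagine, comp21121_c0 was 3.61-fold lower in LP (3.51 to 3.7) and comp24552_c0 1.9-fold lower (1.79 to 2.03). The gene for the nitrogen sensor PII, comp16382_c0, was 1.24-fold lower (1.16 to 1.33). Its log2 ratio was -0.30 and that of comp19654_c0 was -0.20, beside a median of -0.16 over all kept genes. Differences this small depend on the scaling, since the TMM factor of LP over CK was -0.24 on the log2 scale.

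**Figure D4:**
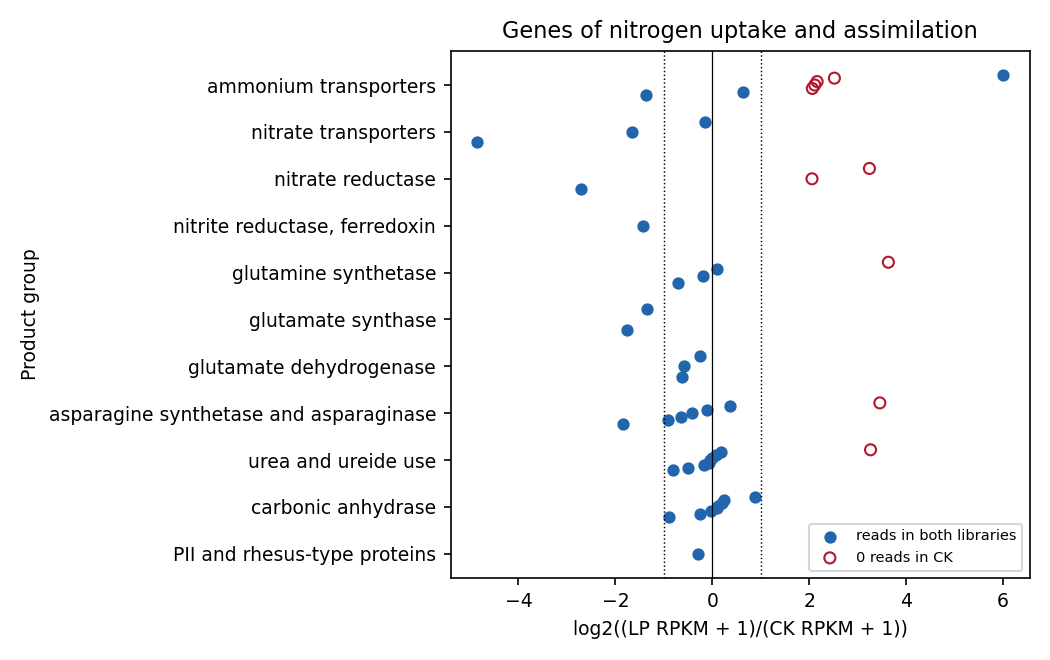
Log2 ratio of LP over CK, with 1 RPKM added, for kept genes by product group, 1 point per gene and folylpolyglutamate synthases left out. Filled points have reads in both libraries, open points have 0 reads in CK, and dotted lines mark 2-fold. Among the nitrogen groups other than ammonium transporters, the 5 open points are the only genes beyond the upper line.

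Genes of other organisms were looked for, since roots can carry fungi. No product name contained chitin synthase or hydrophobin, which were searched as fungal markers. Only 8160 of the 32731 genes have a product name, so this search cannot show that fungi were absent. Of 7 genes matched by sterol and trehalase names, which plants can also hold, 4 had 0 reads in CK (57.1%, against 4.45% of all genes). Among them was the sterol 24-C-methyltransferase comp10376_c0 with 193 reads and 13.79 RPKM in LP. Others, comp85740_c0 and comp13797_c0, had 17 and 7.03 reads in LP and were not kept. The list summed to 125.6 RPKM in LP against 95.3 in CK. Most of this came from comp10738_c0, comp24213_c0 and comp23829_c0, which were read in both libraries. Of 25 genes with GO terms of fungal life, such as hypha or ascospore, 8 had 0 reads in CK (32%, against 4.45% of all genes). None of the 7 Amt genes carries such a term. The part of other organisms in comp16516_c0, in the 4 Amt genes unread in CK and in the nitrogen genes unread in CK was not tested.

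Root character was read from 26 genes with root hair or Casparian strip terms, which summed to 1457 RPKM in LP against 1422 in CK. The 54 green tissue genes summed to 476 RPKM in LP against 889.5 in CK. The part of tissue make-up in the Amt levels was not tested.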

How the data were processed

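Both root libraries come as 1 table. The labels' protocols describe poly(A) selection but also speak of an adipose type and of both RNA fractions, so the fraction is uncertain. The authors deposited estimated counts (not whole, not normalized) and RPKM per assembled gene. They also deposited gene lengths, effective lengths, a log2 fold change, and a p-value and FDR rounded to 2 decimals. How reads were assembled, aligned, counted and tested is not given in the sources used here. Genes were not placed on a genome, and product names and similar-protein identifiers are those of the table.

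Ratios are log2((LP + 1)/(CK + 1)) on RPKM for genes whose mean reached 1 RPKM, a scale that understates the fold of low genes. Folds divide RPKM values or, where a level is under 1 RPKM, reads per library total. Their exact 95% Clopper-Pearson intervals take their width from the reads and are set around the printed fold. Where RPKM and reads differ, a fold by reads alone can therefore lie outside the interval. These intervals, the Poisson intervals of levels and the floor of 3 reads cover counting error only. Reads were rounded for intervals and for edgeR 4.0.16 and DESeq2 1.42.0, which gave scaling factors only. The calculations ran in Python 3.11.15 with scipy 1.17.1 and were tested on simulated data. With 1 library per group no p-value was computed.

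Genes and lists were chosen with earlier results of these data known. Named are all Amt genes, the highest and lowest members of each nitrogen list (some unprinted) and the 3 genes nearest to the most abundant Amt gene. The lists of TIP genes, ammonium terms, fungal GO terms, root terms and proton pumps were added after the files were seen. Searches for CBL and CIPK names matched 0 genes, as did the first one for plasma membrane proton pumps, whose wording was not that of the table. The later search for H+-transporting ATPase matched 17 genes, of which 16 were kept. Among those 16, 4 (25%) lay 2-fold or more above CK in the LP library and 5 (31.25%) as far below. The shares over all kept genes were 8.68% and 16.2%. Each of the 4 called higher had 0.12 RPKM or less in CK. These 4 passed the filter through LP alone, so their calls were fixed by it and the count is a description only. The glutamate synthase search also took 4 folylpolyglutamate or dihydrofolate synthases.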

Additional observations from a re-analysis of the deposited data

How the results depend on the processing

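No paired analysis was possible because each group has 1 library and no test was run. The summed Amt level was 1.31 times as high in LP, 1.55 times with TMM scaling, 1.18 times without the members unread in CK, 8.56 times without comp25882_c0 and 0.65 times without comp16516_c0, so single members decide it. Of the 7 members, 5 were at least 2-fold higher, but 1 at a mean of at least 5 RPKM, 1 without members unread in CK and 0 where both libraries had to hold 10 reads or more, since fewer genes are then counted. The member lower in LP did not pass a limit of 4-fold, leaving 0. The nitrogen genes higher in LP went from 5 to 1, 0 and 0 under those 3 filters, and their lower count was 7 throughout. The median of the nitrogen genes was 0.046 with TMM and 0.025 with DESeq2 scaling, which also moved the median of all kept genes from -0.16 to 0.048 and 0.029. Of 43 recomputed values of single Amt folds, 15 moved beyond counting error and 0 reversed, but genes unread in CK cannot reverse and a filter does not alter a single fold. The pseudocount moved most: comp139553_c0 had a log2 ratio of 2.06 with 1 RPKM and 5.04 with 0.1 RPKM. With TMM scaling comp21697_c0 had a log2 ratio of 0.86, still within 2-fold. Leaving out comp16516_c0 or the genes unread in CK, and folds by reads alone, were chosen after seeing the data. Depth limits the 3 short genes most, since their level in LP would give 11.4 to 21.0 reads in CK.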

Other observations

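Peptide and nitrate carriers of the POT family, which in plants includes many nitrate transporters, were matched as 62 genes. Of 61 kept, 15 lay at least 2-fold above CK in the LP library (24.6%) and 1 lay below (1.64%), beside 8.68% and 16.2% of all kept genes. Of the 62, 7 had 0 reads in CK (11.3%, against 4.45% of all genes). The kept genes at or near 0 in CK passed the filter through LP alone and had to be called higher, so the count is a description only. Not all 15 calls were fixed in this way. The gene comp27002_c0 had 100.9 RPKM in LP against 22.37 in CK, on 4974 and 447 reads, 4.51-fold higher (4.09 to 4.98). The gene comp26973_c0 had 31.84 RPKM in LP against 0.16 in CK, on 2274 and 4.09 reads, 205-fold higher (81.6 to 768). The gene comp23403_c0, of 331 bases, had 404 reads in LP and 0 in CK, at least 49.6-fold higher. At the other end, comp20844_c0 had 2.48 RPKM in LP against 6.32 in CK, 2.55-fold lower (1.73 to 3.74). Among the 8 carbonic anhydrases counted with the nitrogen searches none was 2-fold apart by RPKM. By reads per library total comp20176_c0 was 2.56-fold lower in LP, against 1.92-fold by RPKM. At 1.96-fold higher in LP, comp45942_c0 lay just within the limit. Of 9 kept genes of urea and ureide use 1, an arginase unread in CK, was at least 2-fold higher.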
